A study of Mus musculus with 6 samples.

Results

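The 8 genes described here encode the enzymes that prepare and carry out the covalent cross-linking of collagen: the lysyl oxidases Lox, Loxl1, Loxl2, Loxl3 and Loxl4, and the lysyl hydroxylases Plod1, Plod2 and Plod3. They were taken by symbol from a deposited table of counts for 53801 mouse genes, and all 8 had counts high enough to be tested. The table holds 6 RNA libraries of stromal vascular fraction cells, the mixed non-adipocyte cells of fat, which came from inguinal white fat and were induced to become adipocytes in culture for 4 days. Of these libraries, 3 came from mice labelled Ythdf1 knockout and 3 from wild-type mice, and all 6 were induced in the same way. The product of Ythdf1 is a reader of m6A, a methyl mark on RNA. The strain, sex and age of the mice, the cells in which the gene was removed and the part of the gene removed are not stated in the labels. The series calls the replicates biological but does not say whether each is 1 mouse or a pool.

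Collagen is modified inside the cell and cross-linked outside it. In the endoplasmic reticulum the lysyl hydroxylases, which need iron and ascorbate, add hydroxyl groups to lysines of the growing chains. Plod1 acts mainly on lysines of the triple helix, Plod2 on those of the short end peptides, and Plod3 also attaches sugars to hydroxylysine. After secretion the lysyl oxidases, which carry copper, turn lysine and hydroxylysine into aldehydes, and these react with neighbouring chains to form the cross-links of collagen fibrils and of elastin. In fat this matrix surrounds the adipocytes and their precursors, and its excess cross-linking is a known feature of fibrotic fat.

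Much of the Loxl2 transcript is shared with another gene on chromosome 14, which bears on what its count covers, so this sequence is shown before the values. Gm21451, annotated as an unprocessed pseudogene at chr14:69390854-69480287 on the plus strand of GRCm38, carries 2348 bases in a row that are identical to the Loxl2 transcript, with 0 differences. The run covers 91.9% of the Loxl2 coding bases, from exon 1 to the end of exon 12 of 14. It leaves out the last 189 coding bases and the 2718 bases after the coding part. The start of the coding part, with its start codon in capitals, is the same at chr14:69633927-69634016 in Loxl2 and at chr14:69415652-69415741 in Gm21451:
Shared start: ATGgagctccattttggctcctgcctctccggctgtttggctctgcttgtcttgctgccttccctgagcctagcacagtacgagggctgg
The spliced transcripts part at the end of exon 12 of Loxl2, after chr14:69690270, where the next exon begins at position 69692314, and in Gm21451 after chr14:69471995, where it begins at position 69477396. In these lines the shared bases are in lower case and the bases after the run are in capitals:
Loxl2: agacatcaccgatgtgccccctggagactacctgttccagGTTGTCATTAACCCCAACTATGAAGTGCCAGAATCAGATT
Gm21451: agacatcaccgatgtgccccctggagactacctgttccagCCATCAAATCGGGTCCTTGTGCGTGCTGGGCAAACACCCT

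**Figure D1:**
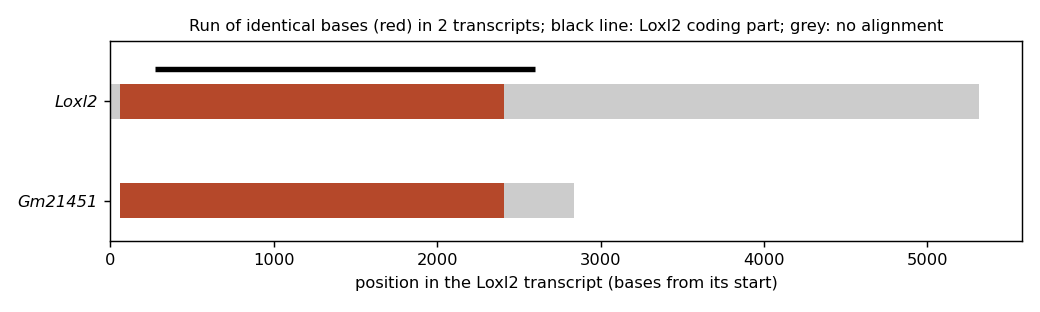
Loxl2 and Gm21451 transcripts drawn along the Loxl2 transcript, in bases from its start. The red run of 2348 identical bases covers most of the coding part (black line), and the part of Loxl2 outside the run (grey) lies mainly after it.

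Of all 50-base words in the Loxl2 transcripts, 42.9% occur in Gm21451. Gm21451 itself received 121 to 168 counts per knockout library and 152 to 183 per wild-type library, while Loxl2 received 9087 to 10556 and 13619 to 15051. Few reads of the shared run were thus counted for Gm21451. How reads with several matches were treated is not given in the sources used here. Whether the other reads of the run were left out or counted for Loxl2 is therefore not known. No 50-base word was shared between any of the 8 members, so a read of that length cannot be mistaken between them.

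In the GENCODE annotation, exons of 5 members overlap a gene on the other strand. The protein-coding gene Htra2 shares 11.62% of the Loxl3 exon bases, and Znhit1, also protein-coding, shares 11.71% of the Plod3 exon bases. The other overlapping genes are Gm38391 (6.42% of the Plod2 exon bases, 7 to 24 counts per library), Gm27177 (5.57% for Loxl2, 0 counts) and AC161119.1 (0.63% for Lox). The strand setting of the counting is not given, so reads from these stretches are uncertain. Htra2 stood at 26.3 ± 0.673 CPM (knockout) and 27.8 ± 0.623 CPM (wild type), and Znhit1 at 35.3 ± 2.48 and 24.5 ± 2.87 CPM, both far under the member they overlap. CPM are counts per 1000000 of the scaled library total, and values with ± are means and SD of 3 libraries unless SE is written.

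Total counts ran from 16619605 to 20089138 per library, at which 3 counts correspond to 0.149 to 0.181 CPM. The Ythdf1 transcript itself stood at 43.8 ± 1.15 CPM (knockout) and 61.8 ± 1.34 CPM (wild type), so most of its signal remained in the libraries labelled knockout. Summed over 10 adipocyte markers, the level was 12410 to 17346 CPM in knockout and 2169 to 3428 CPM in wild type, and adipocyte markers were present in every library. Summed over 8 myofibroblast and smooth muscle markers it was 173 to 201 CPM against 864 to 1255 CPM, and over 10 fibroblast and progenitor markers 4470 to 4624 CPM against 5490 to 5548 CPM. Over 8 macrophage markers it was 278 and 280 CPM in knockout replicates 1 and 2, 742 CPM in knockout replicate 3 and 86.4 to 158 CPM in wild type. Over 9 colon epithelium markers it was 14.95 to 16.6 CPM against 52.2 to 61.6 CPM, with Agr2 at 0 in knockout, and 6 endothelial markers overlapped, at 24.3 to 34.0 against 21.9 to 27.8 CPM. The part that these marker differences have in the results below was not tested.

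The question addressed by the design is how transcript levels differ between Ythdf1 knockout and wild-type cultures. Among the 8 cross-linking genes, 6 fell in knockout, 1 rose and 1 did not pass the test. The fall was largest for Lox, and Loxl2, Loxl3, Loxl4, Plod2 and Plod3 fell by less. Plod1 rose. Loxl1 did not pass. The threshold was an adjusted p of 0.05, from the quasi-likelihood test of edgeR and Benjamini-Hochberg adjustment over 14816 genes. Of all these genes 21.7% fell and 22.6% rose (44.3% in all), so a call by itself is common in this comparison. The median log2 fold change, knockout over wild type, was -0.45 over the 8 members and 0.01 over all genes tested. In a mixed culture such as this, fewer cells of a type and less RNA per cell cannot be told apart.

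**Figure D2:**
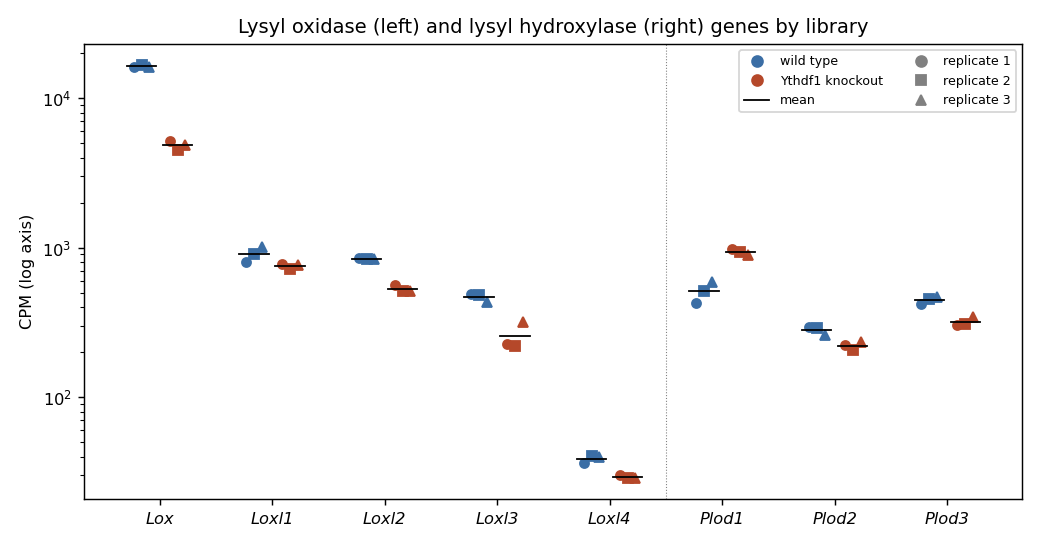
CPM (log axis) of the 8 genes in each of the 6 libraries, with wild type in blue, knockout in red, the marker shape giving the replicate and a line at the mean. The 3 knockout values lie apart from the 3 wild-type values for every gene, below them for 7 genes and above them for Plod1, and 55.2% of all tested genes separate the groups in this way.

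Lox (ENSMUSG00000024529, chromosome 18 from 52516067 to 52529867, minus strand) encodes the founding lysyl oxidase, which cross-links fibrillar collagen and elastin. Its level was 5191, 4492 and 4852 CPM in knockout replicates 1 to 3 and 16179, 16741 and 16233 CPM in wild-type replicates 1 to 3. The groups were far apart and the replicates close together. The log2 fold change was -1.76 ± 0.11 (SE), with an edgeR adjusted p of 8.46e-07, so that knockout held 0.296 of the wild-type level (95% interval 0.25 to 0.35). Lox ranked 3rd of all genes by mean CPM in wild type and 12th in knockout, and took 1.6% to 1.63% of all counts in wild-type libraries and 0.447% to 0.523% in knockout libraries. Of the 14816 genes, 348 had a lower log2 fold change. A fall of at least 2-fold that passed the test was found for 6.69% of all genes, and among the 8 members for Lox alone.

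Loxl1 (ENSMUSG00000032334, chromosome 9 from 58287738 to 58313186, minus strand) encodes an oxidase needed for the upkeep of elastic fibres. It was at 778, 717 and 770 CPM in knockout and 800, 910 and 1010 CPM in wild type. Every knockout value lay below every wild-type value, but knockout replicate 1 and wild-type replicate 1 nearly met. The log2 fold change of -0.26 ± 0.11 (SE) did not pass (edgeR adjusted p = 0.0696), and the 95% interval of the fold, 0.706 to 0.983, was not adjusted for the number of genes. The call depended on the tool and on 1 library: the adjusted p was 0.0295 under DESeq2, 0.0256 under limma-voom and 0.0217 in edgeR without wild-type replicate 1.

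Loxl2 (ENSMUSG00000034205, chromosome 14 from 69609068 to 69695834, plus strand) encodes an oxidase that acts on collagen IV of basement membranes as well as on fibrils. It was at 560, 516 and 514 CPM in knockout and at 851, 842 and 841 CPM in wild type. The wild-type values were nearly equal and lay well above the knockout values. The log2 fold change was -0.67 ± 0.09 (SE, edgeR adjusted p = 0.000138). The run of bases identical to Gm21451, shown above, limits what this count covers, and the level of Gm21451 itself was low and did not differ by the test (7.60 ± 1.42 against 9.52 ± 0.932 CPM, edgeR adjusted p = 0.142).

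Loxl3 (ENSMUSG00000000693, chromosome 6 from 83034173 to 83052562, plus strand) was at 228, 219 and 319 CPM in knockout and at 491, 479 and 435 CPM in wild type. Knockout replicate 3 stood above the other knockout libraries but below every wild-type library. This is the library with the highest macrophage marker sum, and the part of that in the Loxl3 value was not tested. The log2 fold change was -0.87 ± 0.14 (SE, edgeR adjusted p = 0.000431), and -1.07 without knockout replicate 3. Loxl4 (ENSMUSG00000025185, chromosome 19 from 42593982 to 42612813, minus strand) was the least abundant member, at 29.96, 28.7 and 28.8 CPM in knockout and 36.0, 40.5 and 39.7 CPM in wild type. Its raw counts were 505 to 592 and 637 to 695. The groups did not overlap, and the log2 fold change was -0.41 ± 0.09 (SE, edgeR adjusted p = 0.0032).

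Among the hydroxylases, Plod1 (ENSMUSG00000019055, chromosome 4 from 147909753 to 147936767, minus strand) went the other way from the rest. It was at 973, 937 and 891 CPM in knockout and at 428, 513 and 587 CPM in wild type. All knockout libraries lay above all wild-type libraries, and the wild-type libraries differed more among themselves than the knockout libraries did. The log2 fold change was 0.87 ± 0.12 (SE, edgeR adjusted p = 0.000148), a fold of 1.83 with a 95% interval from 1.53 to 2.20. It stayed between 0.76 and 0.99 when any 1 library was left out.

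Plod2 (ENSMUSG00000032374, chromosome 9 from 92542223 to 92608428, plus strand) was at 224, 206 and 233 CPM in knockout and at 296, 290 and 259 CPM in wild type. The gap between the highest knockout and the lowest wild-type library was small. The log2 fold change was -0.35 ± 0.09 (SE, edgeR adjusted p = 0.0104), and the call was lost without wild-type replicate 2 (adjusted p = 0.0547). Plod3 (ENSMUSG00000004846, chromosome 5 from 136987019 to 136996648, plus strand) was at 304, 309 and 345 CPM in knockout and at 419, 453 and 465 CPM in wild type. These groups were clearly apart, with a log2 fold change of -0.48 ± 0.10 (SE, edgeR adjusted p = 0.0017).

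**Figure D3:**
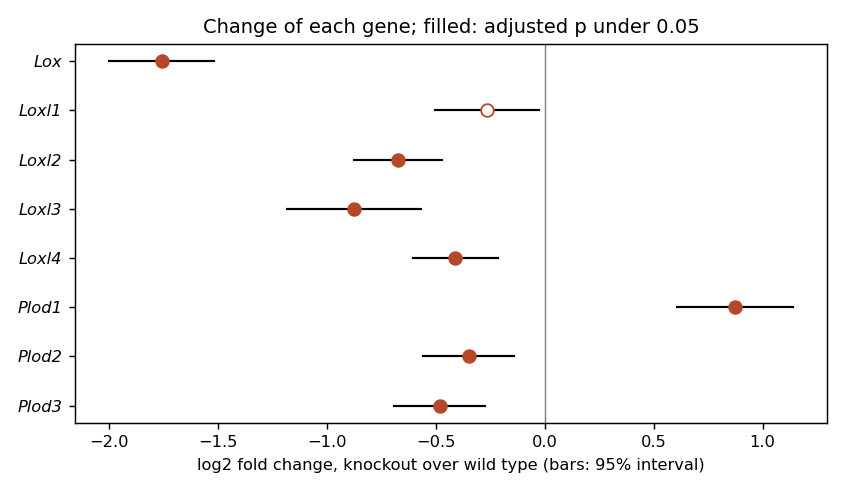
Log2 fold change of each gene, knockout over wild type, with its 95% interval. Lox stands lowest at -1.76, Plod1 is the single gene above 0, and the open point for Loxl1 marks an adjusted p of 0.0696.

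Because the members differ in length, levels were compared between them as CPM per kilobase of exon. In wild type the order was Lox (3429 ± 64.9), Loxl1 (275 ± 31.9), Loxl2 (156 ± 1.07), Loxl3 (102 ± 6.40), Plod3 (98.6 ± 5.33), Plod1 (75.3 ± 11.8), Plod2 (52.3 ± 3.68) and Loxl4 (9.20 ± 0.571). Loxl3 and Plod3 did not differ beyond their spread there. In knockout the order was Lox (1014 ± 73.2), Loxl1 (229 ± 9.96), Plod1 (138 ± 6.08), Loxl2 (98.1 ± 4.73), Plod3 (70.6 ± 4.94), Loxl3 (55.5 ± 12.1), Plod2 (41.0 ± 2.58) and Loxl4 (6.92 ± 0.164). On this scale Plod1 stood below Plod3 and Loxl2 in wild type and above both in knockout. Between Plod3 and Loxl3, and between Loxl3 and Plod2, the gap in knockout was close to the spread of Loxl3. The place of Loxl2 depends on how its shared run was counted, and that of Plod1 in wild type on the length used. Another length, chosen after seeing the data, was the number of 50-base words not shared with another gene. With it, Loxl2 took 6.91% ± 0.163 of the oxidases in wild type and Loxl1 6.72% ± 0.742. In knockout these shares were 12.0% ± 0.496 and 15.5% ± 0.345. Within the hydroxylases of wild type, Plod1 took 36.7% ± 3.45 and Plod3 40.3% ± 0.474 with the length of the longest transcript, and 41.0% ± 3.67 and 36.1% ± 0.589 without division by length.

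The make-up of each family moved with these changes. Lox made up 86.8%, 86.5% and 85.7% of the per-kilobase sum of the oxidases in wild-type replicates 1 to 3 and 73.3%, 71.9% and 71.5% in knockout replicates 1 to 3. The share of Loxl1 was 6.92% ± 0.760 in wild type and 16.3% ± 0.378 in knockout, although its own level was not higher. The sum over the 5 oxidases was 3971 ± 74.3 CPM per kilobase in wild type and 1403 ± 88.8 in knockout. Plod1 made up 29.99%, 33.0% and 36.5% of the hydroxylases in wild type and 56.9%, 56.5% and 52.4% in knockout, while Plod3 went from 43.6% ± 0.333 to 28.3% ± 1.90 and Plod2 from 23.2% ± 2.92 to 16.4% ± 0.815. The sum over the 3 hydroxylases was 226 ± 13.9 CPM per kilobase in wild type and 249.6 ± 4.06 in knockout. Each of these shares and sums separated the genotypes, as 55.2% of all tested genes did by CPM. The exact permutation test (2-sided) gave p = 0.1 for each, the smallest value that 3 libraries against 3 allow, and it was the same in all 18 family comparisons after Benjamini-Hochberg adjustment.

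**Figure D4:**
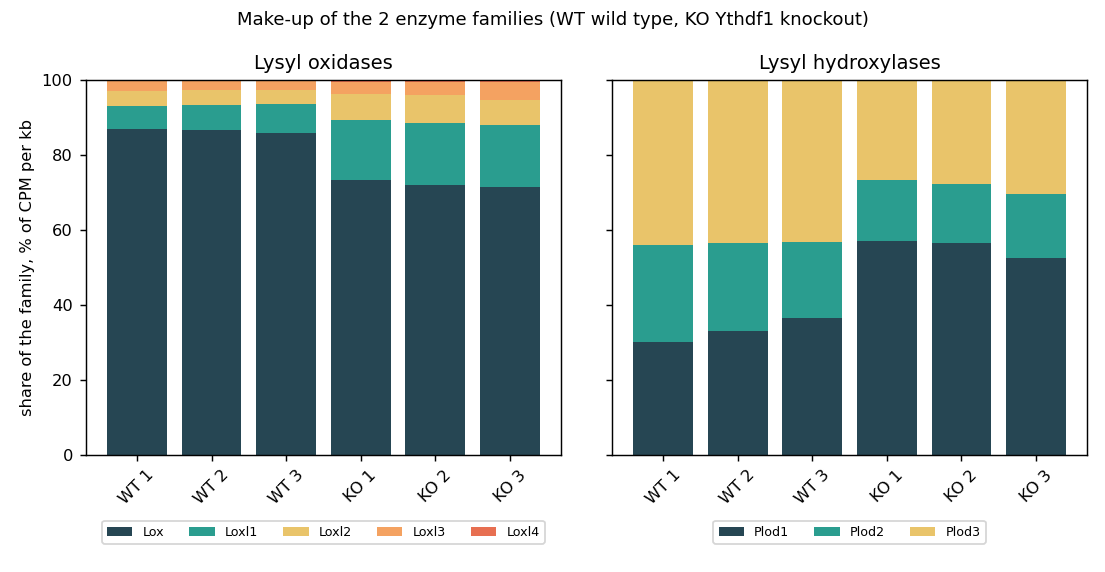
Share of each gene in the summed CPM per kilobase of its family (%, bars stacked to 100) in wild-type (WT) and knockout (KO) libraries 1 to 3. Lox takes 85.7% to 86.8% of the oxidases in wild type and 71.5% to 73.3% in knockout, and Plod1 takes 29.99% to 36.5% and 52.4% to 56.9% of the hydroxylases.

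The substrates were set beside the enzymes. Of 11 genes for fibrillar collagens and elastin with enough counts, 7 fell and 3 rose, beside 21.7% and 22.6% of all tested genes. The median log2 fold change of the 11 was -1.20. The abundant collagen genes Col1a1, Col1a2 and Col3a1, which form the bulk of fibrils, changed by -1.24, -1.20 and -1.27 on the log2 scale, and the minor fibril chains Col5a1, Col5a2 and Col11a1 by -1.33, -1.44 and -4.60. The genes that rose were Col5a3 (1.91), Col27a1 (1.66) and Col11a2 (0.74). The elastin gene Eln was low, with 8.51 ± 2.01 CPM (knockout) and 11.2 ± 4.12 CPM (wild type), and did not pass (edgeR adjusted p = 0.258). Col2a1 was too low to test. The myofibroblast marker sum given above was lower in knockout too, and its part in the fall of matrix genes was not tested.

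The oxidases and the hydroxylases stood in different proportion to these collagens. The log2 ratio of the summed oxidases to the summed fibrillar collagens, both per kilobase, was -0.99, -1.12 and -0.95 in the knockout libraries, with -0.67, -0.74 and -0.67 in wild type. That is a difference of -0.33. The oxidase sum is mostly Lox, and the other 4 oxidases had log2 fold changes of -0.87 to -0.26, smaller falls than the -1.27 to -1.20 of Col1a1, Col1a2 and Col3a1. The same ratio for the hydroxylases was -3.54, -3.54 and -3.45 in the knockout libraries, with -4.88, -4.88 and -4.73 in wild type, a difference of 1.317. For Lox against Col1a1 alone the log2 ratio was -0.17 ± 0.11 in knockout and 0.35 ± 0.06 in wild type. For Plod1 against Col1a1 it was -3.05 ± 0.01 and -5.18 ± 0.22. None of these groups overlapped, and 55.2% of all tested genes separated the genotypes by CPM in the same way. Each exact permutation p was 0.1, the smallest possible.

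Of the 6 genes of collagen IV, the network collagen of basement membranes, 2 fell, beside 21.7% of all tested genes. They were Col4a5 (log2 fold change -1.19) and Col4a6 (-1.40), and the median of the list was -0.10. The difference from the fibrillar chains was not tested. Neither main chain passed: Col4a1 stood at 3378 ± 249 CPM (knockout) and 3287 ± 443 CPM (wild type), and Col4a2 at 2287 ± 140 and 2695 ± 390 CPM (edgeR adjusted p = 0.821 and 0.138).

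Other enzymes and chaperones that modify procollagen in the endoplasmic reticulum fell almost throughout. Of 16 tested, 14 were lower and 1 was higher, beside 21.7% and 22.6% of all tested genes. The remaining gene, Mia3, did not pass, and the median log2 fold change of the list was -0.70. The prolyl 4-hydroxylase genes P4ha2 and P4ha3, whose products stabilise the triple helix, were at 335 ± 15.5 against 849 ± 31.6 CPM and 38.4 ± 5.23 against 105 ± 6.16 CPM. P4hb, their shared partner subunit, was at 1630 ± 66.2 against 2463 ± 46.02 CPM, and P4ha1 at 482 ± 6.63 against 761 ± 32.9 CPM. The collagen chaperone gene Serpinh1 was at 979 ± 43.5 against 1931 ± 99.6 CPM.

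Several of these genes encode known partners of the lysyl hydroxylases. Fkbp10, whose product is needed for Plod2 to act on the end peptides, stood at 124 ± 4.36 CPM (knockout) and 283 ± 10.7 CPM (wild type), with a log2 fold change of -1.19 where Plod2 had -0.35. The genes P3h3, P3h4 and Ppib, whose products work in a complex with the Plod1 enzyme, had log2 fold changes of -0.63, -0.75 and -0.76 (edgeR adjusted p = 6.95e-05, 5.77e-05 and 0.000189), while Plod1 had 0.87. Colgalt1, which adds the first sugar to hydroxylysine, fell by 0.58 on the log2 scale. The gene that rose was Tmem38b, an ion channel of the endoplasmic reticulum, at 74.1 ± 7.62 against 46.9 ± 7.65 CPM (edgeR adjusted p = 0.0011).

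Genes that act on procollagen or on the oxidases in the later steps fell as well. Of 7 processing enzymes and enhancers tested, 6 were lower, beside 21.7% of all tested genes. Adamts2 did not pass, and the median log2 fold change of the list was -0.57. With any 1 library left out, 4 or 5 were lower, 4 of them without knockout replicate 1 or wild-type replicate 2. Bmp1, the protease that releases both fibrillar collagen and active Lox from their precursors, stood at 588 ± 61.4 CPM (knockout) and 875 ± 41.2 CPM (wild type). Its enhancer gene Pcolce fell by 0.33 and Pcolce2 by 1.65 on the log2 scale. The related protease gene Tll1 was low, at 0.513 ± 0.111 against 3.03 ± 1.45 CPM. Each of the 6 genes for matrix proteins that bind lysyl oxidases was lower, with a median log2 fold change of -1.48. Among them were fibronectin, Fn1 (7800 ± 980 against 14331 ± 1424 CPM), periostin, Postn (log2 fold change -1.92), fibromodulin, Fmod (-2.22), thrombospondin, Thbs1 (-1.65), and fibulin-5, Fbln5 (-1.32), which brings oxidase to elastin.

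**Figure D5:**
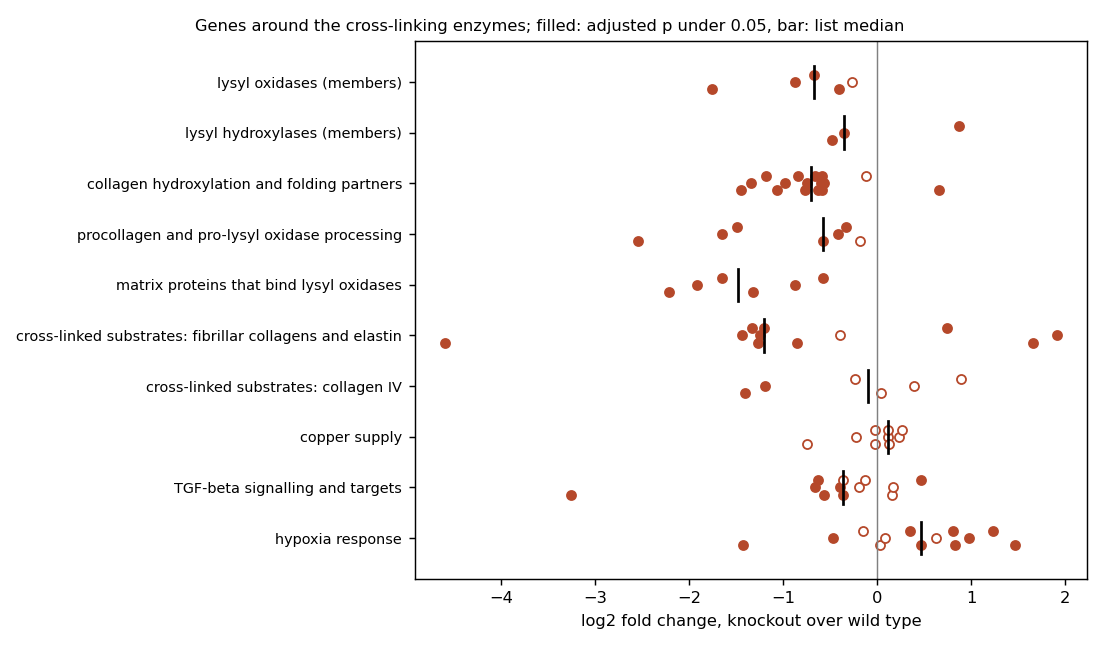
Log2 fold change, knockout over wild type, of each tested gene (point) in the lists around the cross-linking enzymes, filled where the adjusted p was under 0.05, with a bar at the list median. Medians lie at -0.70 for hydroxylation and folding partners, -1.48 for oxidase-binding proteins and 0.11 for copper supply.

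Copper supply, on which the oxidases depend, gave 0 calls among 9 genes in edgeR, where 44.3% of all tested genes were called. At an unadjusted p under 0.05 edgeR gave 0 as well. There were 0 calls in DESeq2 and in limma-voom (1 at an unadjusted p under 0.05 in limma-voom). The metallothionein gene Mt1 was at 753 ± 164 against 641 ± 62.2 CPM, and Atox1, which hands copper to the secretory pathway, at 47.2 ± 9.64 against 39.3 ± 2.94 CPM. The median log2 fold change of the list was 0.11. Without knockout replicate 2 or 3, 1 and 2 of its genes were called higher.

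Lox and Plod2 are known targets of TGF-beta and of hypoxia. Of 12 genes of TGF-beta signalling and its targets 6 fell and 1 rose, beside 21.7% and 22.6% of all tested genes. The genes Tgfb1, Tgfb2, Smad2, Smad7 and Tgfbi did not pass. Ccn2, a matricellular target gene, stood at 49.8 ± 14.8 CPM (knockout) and 479 ± 147 CPM (wild type). The receptor gene Tgfbr1 and the signal transducers Smad3 and Smad4 fell by 0.67, 0.56 and 0.36 on the log2 scale, and the receptor gene Tgfbr2 rose by 0.47, a call lost without knockout replicate 1. Of 13 genes of the hypoxia response 7 rose and 2 fell, beside 22.6% and 21.7% of all tested genes. The median log2 fold change of this list was 0.47. Vegfa, Egln3, Bnip3 and Ndrg1 rose by 0.98, 1.23, 0.81 and 0.82 on the log2 scale. Hif1a and Adm fell by 1.43 and 0.47. The genes Slc2a1, Egln1, Ankrd37 and Arnt did not pass (edgeR adjusted p = 0.506, 0.808, 0.0515 and 0.153). Plod1 shares its direction with the genes of this list that rose, and Plod2 and Lox do not. Whether TGF-beta or hypoxia has a part in the levels of the members was not tested.

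The genes whose profile was most like that of each member were named by the smallest root-mean-square distance between log2 CPM profiles over the 6 libraries, each centred on its own mean, among 10497 genes of at least 5 CPM. For Lox they included Gdf10 and Plxdc2, at distances of 0.0725 and 0.0758. For Loxl1 they included Ttc17 and Ece1, for Loxl2 Ror2, Zfp37 and Agtr1a, for Loxl3 Prc1, Ext1 and Myof, and for Loxl4 Invs, Gypc and Smc3. For Plod1 they were Mxd1, Tmem69 and Grina, for Plod2 Csnk1g3, Edem3 and Ripk3, and for Plod3 Abi2, Selenon and March9. Among the members, Loxl4 and Plod3 had the closest profiles, at a distance of 0.082, and Lox and Plod1 the most distant, at 1.33. These distances include the change between genotypes. The largest mostly repeat the difference in log2 fold change, which was -1.76 for Lox and 0.87 for Plod1.

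Of the neighbours of Plod1 on chromosome 4, the nearer, 2510039O18Rik at 4128 bases, did not pass (log2 fold change 0.21, edgeR adjusted p = 0.0618). On the other side Mfn2, a gene of mitochondrial fusion 5049 bases away, stood at 191 ± 4.205 CPM (knockout) and 98.8 ± 9.38 CPM (wild type; log2 fold change 0.95, edgeR adjusted p = 9.78e-06). Dok1, 702 bases from Loxl3, was at 34.4 ± 5.48 against 62.7 ± 6.97 CPM (log2 fold change -0.87, edgeR adjusted p = 0.000177). Aup1, 1959 bases from Loxl3 on its other side, rose by 0.33 on the log2 scale (edgeR adjusted p = 0.00568). Pyroxd2, 113045 bases from Loxl4, rose by 0.33, and Vgf, 29744 bases from Plod3, fell by 0.58 on the log2 scale (edgeR adjusted p = 0.014 and 0.0157). The nearer neighbours, R3hcc1l at 1639 bases from Loxl4 and Cldn15 at 11161 bases from Plod3, did not pass (edgeR adjusted p = 0.967 and 0.714). Their log2 fold changes were -0.01 and -0.08. Among the overlapping genes given above, Znhit1 at Plod3 rose by 0.52 on the log2 scale (edgeR adjusted p = 0.00236). Htra2 at Loxl3 did not pass (edgeR adjusted p = 0.515). Of all tested genes 44.3% were called. The nearest protein-coding neighbours of Lox, Loxl1, Loxl2 and Plod2 with enough counts did not pass.

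RefSeq promoter windows of GRCm38.p6, from 250 bases before to 50 bases after the start, were searched for 3 members, Loxl4, Plod1 and Plod3. The other members, Lox among them, were not part of this search, so it says nothing about their promoters. The windows of the 2 hydroxylases are shown because these genes moved in opposite directions. Motif matches on either strand are in capitals, from a search for ACGTG, the core of the hypoxia response element, GGAATG of TEAD factors, CAGACA of SMAD factors and TATAAA, the TATA box. The first line is chr4:147936727-147937026 on the minus strand and the second chr5:136986769-136987068 on the plus strand:
Plod1: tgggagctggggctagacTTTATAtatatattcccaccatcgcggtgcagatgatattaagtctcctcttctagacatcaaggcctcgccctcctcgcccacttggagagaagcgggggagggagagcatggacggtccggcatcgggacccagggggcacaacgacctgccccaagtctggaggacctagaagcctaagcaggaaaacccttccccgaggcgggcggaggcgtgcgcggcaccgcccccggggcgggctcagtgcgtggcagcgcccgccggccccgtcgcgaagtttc
Plod3: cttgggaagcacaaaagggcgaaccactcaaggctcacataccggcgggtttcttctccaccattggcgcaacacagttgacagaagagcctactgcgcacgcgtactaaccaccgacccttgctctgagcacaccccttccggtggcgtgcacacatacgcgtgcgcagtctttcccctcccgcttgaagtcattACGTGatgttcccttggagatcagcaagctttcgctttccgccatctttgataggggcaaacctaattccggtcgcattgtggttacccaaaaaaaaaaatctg
The Plod1 window held 1 match to TATAAA, on the other strand and far before the start, and the Plod3 window 1 match to ACGTG. Of 32851 windows of the same length, 13.6% held TATAAA, 19.6% ACGTG, 14.7% GGAATG and 21% CAGACA. These letters do not overlap another motif of the search, and the Loxl4 window held none of the 4. The GC content was 75.0% for Loxl4, 64.3% for Plod1 and 53.3% for Plod3, against a median of 52.7% over all windows. A match describes the letters and is not evidence of binding.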

How the data were processed

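RNA of 6 libraries was measured by sequencing of rRNA-depleted total RNA in read pairs of 150 bp, per the labels' protocols. Raw counts per Ensembl gene were deposited in 1 table, made by the authors with STAR and featureCounts on mm10 and GRCm38, per the submitters' processing notes. Versions, annotation, strand setting and treatment of multiply matching reads were not given in the sources used here. GENCODE M21 (GRCm38) matched 53706 of 53801 identifiers and gave symbols, positions and exon lengths, the other 95 took at most 0.00683% of a library. The promoter windows came from RefSeq.

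Groups and replicate numbers came from the sample titles. edgeR 4.0.16 in R 4.3.3 was run on genes kept by filterByExpr (minimum count 10, minimum total 15; 14816 of 28268 genes with any count), with TMM factors of 0.975 to 1.02, robust dispersions, genotype as the single term, the quasi-likelihood F test (legacy, robust; 2-sided) and Benjamini-Hochberg adjustment over all genes tested. SEs are the log2 fold change over the root of F. Replicates were distinct libraries (chi-square of counts per degree of freedom 10.2 to 26.3 within and 160 to 242 between genotypes). P-values refer to the spread between replicates and do not cover a step that coincided with genotype. Floors of 3 counts cover counting error only.

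Members and lists were chosen with earlier results of these data known. Named list genes are up to 5 with the smallest p among those called and the 3 most abundant per length, and overlapping genes are named. Some genes that this rule selects are not reported here. Mia3, Eln, Col2a1, Col5a3, Col11a2, P3h3, P3h4, Ppib, Colgalt1, Tmem38b, the neighbouring genes and Gm21451 were named after their values were seen. So were Epas1, Car9, Pdk1 and the TGF-beta and hypoxia genes that did not pass. The fit was tested on simulated data. Alternatives were RLE and upper-quartile factors, library totals alone, DESeq2 1.42.0, limma-voom (limma 3.58.1) with quality weights, the newer edgeR setting, genes left unfiltered, 1 CPM in 3 libraries, the replicate number as a block, the library name suffix as a covariate, a minimum fold of 2, other lengths, and each library left out.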

Additional observations from a re-analysis of the deposited data

How the results depend on the processing

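The direction of each of the 8 genes was the same under all 11 other settings of the fit and with each library left out. The scaling moved the median log2 fold change of all genes from 0.01 to between -0.05 (upper-quartile factors) and 0.03 (library totals alone). Loxl1 became a call with upper-quartile factors (log2 fold change -0.32), DESeq2 (-0.27) and limma-voom (-0.24), and its log2 fold change with 1 library left out ran from -0.35 to -0.18; the cause was not tested. Plod2 ran from -0.41 to -0.30 with 1 library left out, and its call ended without wild-type replicate 2 (-0.33). Tested against a minimum fold of 2, 1 of the 8 genes was lower (Lox) and 0 higher, since that test asks for a larger change; the calls of Loxl2 (-0.67), Loxl3 (-0.87), Loxl4 (-0.41), Plod1 (0.87), Plod2 (-0.35) and Plod3 (-0.48) ended, and 591 genes were higher and 391 lower in all, against 3342 and 3219. With 1 library left out, copper supply genes called higher ranged from 0 to 2, TGF-beta genes called higher from 0 to 1, and processing genes called lower from 4 to 5, against 6 with all libraries and 5 with the replicate block. The difference in the share of Lox among the oxidases, -14.1 percentage points, was -12.4 without division by length and -15.4 with length counted as 50-base words not shared with another gene, a length chosen after seeing the data. The hydroxylase to collagen difference of 1.317 was 1.45 without division by length. Samples of the same replicate number did not deviate together (correlations of -0.126, 0.0117 and -0.143), so the numbers give no pairing; with the replicate block 3136 genes were higher and 2993 lower, Lox was at -1.76 and Plod1 at 0.89, and no member's call changed.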
